A study of Mus musculus with 6 samples.

Results

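The high mobility group (HMG) genes encode small, abundant chromatin proteins of 3 families, HMGA, HMGB and HMGN, and their mRNAs were followed in polysome RNA of the macrophage-like mouse cell line RAW264.7. The members were taken by symbol from the deposited table, and all 10 listed symbols (Hmga1, Hmga1b, Hmga2, Hmgb1, Hmgb2, Hmgb3, Hmgn1, Hmgn2, Hmgn3 and Hmgn5) were among its 19233 rows. Of these, 9 passed the level filter and were tested, as were 9748 genes in all, and each of the 9 was at 1 FPKM or more in every library. FPKM (fragments scaled by transcript length and by library size) is a share of the library. Hmgn3 lay under the filter.

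HMGA proteins bind the minor groove of AT-rich DNA through short AT-hooks and change its shape. HMGB proteins bend DNA with HMG boxes and end in an acidic tail, and HMGB1 released from cells also acts as an alarm signal to macrophages. HMGN proteins bind the nucleosome itself and compete with the linker histone H1.

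Both groups were RAW264.7 cells that the titles label M2, the alternatively activated state of macrophages. The treated group (3 libraries) received 500 nM BMH-21, which binds DNA and blocks transcription by RNA polymerase I, for 24 h from 24 h after polarization, and the control group (3 libraries) received DMSO, the solvent. The treatment text of the labels speaks of bone marrow macrophages and of more than 1 polarizing mixture, so the agent given to the line is not certain. Polr1a, which encodes the catalytic subunit of RNA polymerase I, was at 0.982 ± 0.065 and 1.05 ± 0.031 FPKM (SD, n = 3) and did not pass the test (limma adjusted p = 0.478). Polysome RNA reflects both the amount of an mRNA and its loading with ribosomes, and these parts cannot be told apart here, nor can fewer cells with an mRNA from less of it per cell. DMSO replicate 2 is labelled polyadenylated RNA and the other 5 libraries total RNA.

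Steps between low values implied 18780000 to 24080000 reads per library. All 10 macrophage markers were measured, with a summed level of 10890 to 11310 FPKM in DMSO and 18770 to 20020 FPKM in BMH-21, while other cell types were covered less fully. In the table were 1 of 7 T cell, 3 of 5 B cell, 2 of 5 fibroblast and 4 of 5 endothelial markers, and each of these lists summed to under 1 FPKM in each library. Of 5 epithelial markers 4 were in the table, and these set DMSO replicate 3 apart from the other DMSO libraries. Krt18, a keratin of simple epithelia, was listed at 0, 0.0644 and 5.47 FPKM in DMSO replicates 1, 2 and 3 and at 8.89, 6.41 and 8.09 FPKM with BMH-21. Krt8, its partner, was listed at 0, 0.0236 and 3.27 FPKM in the DMSO libraries and at 4.22, 3.60 and 3.78 FPKM with BMH-21. Summed, the 4 ranged from 0 to 9.66 FPKM in DMSO and from 10.9 to 13.9 FPKM in BMH-21. Their part in the results was not tested. Without DMSO replicate 3, the members that passed limma numbered 8 of 9, Hmgn1 being the one that did not. That comparison does not test the part of these markers. They were at or near 0 in the DMSO libraries that remained and present in every BMH-21 library.

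With BMH-21 the 3 families went different ways. The HMGA genes rose, to about 2-fold for Hmga1 and 3.46-fold for Hmga2, and all 3 HMGB genes fell, by 2.99-fold for Hmgb1, 3.55-fold for Hmgb3 and 4.88-fold for Hmgb2. The HMGN genes were split, with Hmgn5 down 4.15-fold, Hmgn2 slightly lower and Hmgn1 slightly higher. Of the 9 tested members, 9 passed limma at an adjusted p under 0.05, 4 higher and 5 lower. Among all tested genes 78.3% passed, 19.9% higher and 58.4% lower, so that passing the test is not in itself a result about these genes. A change of at least 2-fold on the log2(FPKM + 1) scale was called for 5 members, 1 higher and 4 lower, and for 6.75% of all tested genes. The BMH-21 and DMSO groups did not overlap in any of the 9, against 79.8% of all tested genes. The members' median log2 fold change was −0.39 and that of all tested genes −0.23.

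**Figure D1:**
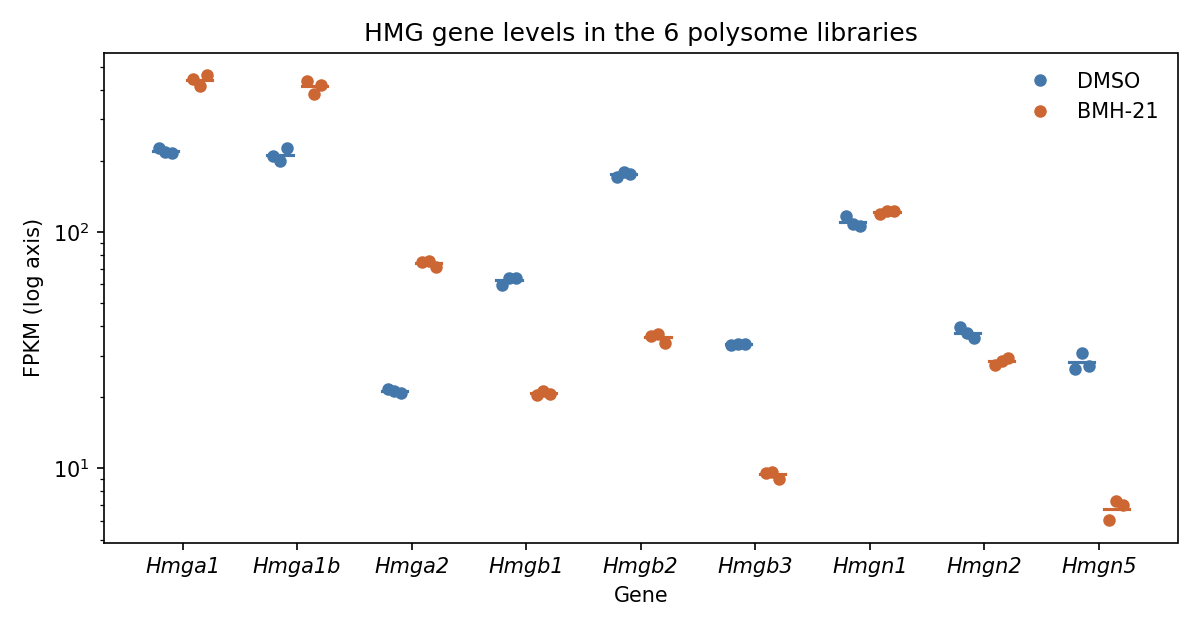
Level of each tested HMG gene (x axis) in FPKM on a log axis, 1 point per library, with a line at the mean of the 3 DMSO (blue) and the 3 BMH-21 (orange) libraries. The HMGA points lie higher and the HMGB and Hmgn5 points lower with BMH-21, and those of Hmgn1 lie close together.

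Hmga2 (chromosome 10, 120361275 to 120476469, minus strand, GRCm38) encodes an AT-hook protein best known from embryos and tumours. It stood at 21.6, 21.3 and 20.8 FPKM in the DMSO libraries and at 74.8, 75.3 and 70.9 FPKM in the BMH-21 libraries. Each BMH-21 value was thus far above each DMSO value, and replicates of a group lay within a few FPKM of each other. The log2 fold change was 1.74 ± 0.04 (SE, limma adjusted p = 8.85e-10), or 1.98 above the median of all tested genes. Only 21 tested genes rose more on this scale.

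The Hmga2 mRNA is a textbook target of the let-7 family of microRNAs, which was not measured in these polyadenylated libraries. Its longest annotated 3′ untranslated region (GENCODE M21) holds 4 matches to the let-7 seed, more than in any other member. The mature let-7a from RefSeq (GRCm38.p6) is printed first with its seed, bases 2 to 8, in capitals, followed by the Hmga2 matches with the complement of the seed in capitals, numbered by their first base after the stop codon (58, 1295, 1733 and 2591).
mmu-let-7a-5p: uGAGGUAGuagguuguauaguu
Hmga2 match at 58: acattcaatttCTACCTCagca
Hmga2 match at 1295: actcctcaataCTACCTCtgaa
Hmga2 match at 1733: tttgcaaggaaCTACCTCcaca
Hmga2 match at 2591: aaaacacactaCTACCTCttaa
At least 1 match to CTACCTC was present in the longest 3′ untranslated region of 9.02% of 21022 coding genes, and 4 or more in 0.06%. Hmga1 and Hmga1b held 1 match each and the other 7 members none. A match is a run of letters and does not show that the site is used.

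Hmga1 (chromosome 17, 27556497 to 27563674, plus strand) encodes the other AT-hook protein, and Hmga1b (chromosome 11, 120762794 to 120764419, plus strand) is a copy with a single exon. The 321 coding bases of Hmga1b had 0 differences from a coding form of Hmga1, and 88.97% of the 50-base stretches of the longest Hmga1b transcript occur exactly in Hmga1. How reads were divided between them is not given in the sources used here, so the separate values are uncertain. The deposited table gave them nearly the same level. Hmga1 was at 226, 217 and 216 FPKM in DMSO and at 442, 413 and 460 FPKM with BMH-21. Hmga1b was at 210, 200 and 227 FPKM in DMSO and at 436, 384 and 420 FPKM with BMH-21. Both were higher in each BMH-21 library than in any DMSO library. The log2 fold change was 0.99 ± 0.05 (SE, limma adjusted p = 3.91e-08) for Hmga1 and 0.96 ± 0.06 (SE, limma adjusted p = 2.38e-07) for Hmga1b. Summed into 1 row, the pair had a log2 fold change of 0.98. The sum still rests on how shared reads were counted, because each FPKM is scaled by the length of its own row. The mean of Hmga1 was 220 ± 5.4 FPKM in DMSO and 438 ± 23 FPKM with BMH-21 (SD, n = 3).

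Hmgb2 (chromosome 8, 57511907 to 57515999, plus strand) encodes the HMG-box protein that is abundant in dividing cells. Its level was 170, 180 and 175 FPKM in the DMSO libraries and 36.5, 37.2 and 34.0 FPKM with BMH-21. The BMH-21 values were far under the lowest DMSO value in all 3 libraries. The log2 fold change was −2.26 ± 0.04 (SE, limma adjusted p = 4.48e-10), and 11 tested genes fell more.

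Hmgb3 (chromosome X, 71555918 to 71560676, plus strand), a family member known from blood stem and progenitor cells, was at 33.2, 33.7 and 33.7 FPKM in DMSO. With BMH-21 it was at 9.58, 9.70 and 9.01 FPKM, well under each DMSO value. The log2 fold change was −1.73 ± 0.04 (SE, limma adjusted p = 1.08e-09). The SD over 3 libraries was 0.277 FPKM in DMSO and 0.366 FPKM with BMH-21.

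Hmgb1 (chromosome 5, 149046702 to 149184489, minus strand), the family member that doubles as an alarm signal, was at 59.6, 63.8 and 63.6 FPKM in DMSO. With BMH-21 it was at 20.5, 21.3 and 20.7 FPKM, and no library of one group came near the other. The log2 fold change was −1.53 ± 0.04 (SE, limma adjusted p = 1.65e-09). Hmgb1 has many processed copies in the mouse genome, and 36.79% of the 50-base stretches of its longest coding transcript also occur in other genes, chiefly Gm21596. That copy fell as well, from 19.1 ± 1.2 to 7.25 ± 1.1 FPKM (SD, n = 3). Hmgb1 with Gm21596 in 1 row had a log2 fold change of −1.50, and Hmgb1 with the 8 Hmgb1-ps pseudogene rows, each at most 1.13 FPKM, had −1.51. Of the other HMGB genes, 21.91% of Hmgb2 and 34.18% of Hmgb3 stretches occur elsewhere, and the copies that share most with them, Gm4739 and Gm6104, were at 0.35 FPKM or less in every library.

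The bases before the starts of the HMGB genes were read for motifs of cell division promoters, which were chosen after the values were seen. CCAAT is the box bound by the factor NF-Y, and TTTGAA is a core of the cell cycle genes homology region (CHR). Both were searched on either strand in the 250 bases before the first RefSeq start of each gene, and matches of the 2 motifs can overlap by at most 1 base. The sequences below are from RefSeq (GRCm38.p6), 5′ to 3′ on the strand of the gene, with CCAAT and TTTGAA matches in capitals (a match on the other strand reads TTCAAA). They end at the base before the start, and for Hmgb1 they leave out 47 bases that an annotated exon covers.
Hmgb2, chr8:57511593-57511842, plus strand: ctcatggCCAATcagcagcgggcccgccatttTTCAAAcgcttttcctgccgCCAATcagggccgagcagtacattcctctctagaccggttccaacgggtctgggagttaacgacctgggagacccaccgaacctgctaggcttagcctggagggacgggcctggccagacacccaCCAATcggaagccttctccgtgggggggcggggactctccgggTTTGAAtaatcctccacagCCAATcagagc
Hmgb3, chrX:71555667-71555916, plus strand: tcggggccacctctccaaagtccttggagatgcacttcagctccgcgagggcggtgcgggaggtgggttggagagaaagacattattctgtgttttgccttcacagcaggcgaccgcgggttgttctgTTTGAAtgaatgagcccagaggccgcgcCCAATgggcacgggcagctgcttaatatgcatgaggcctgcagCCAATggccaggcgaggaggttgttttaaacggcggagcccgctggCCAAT
Hmgb1, chr5:149053058-149053260, minus strand: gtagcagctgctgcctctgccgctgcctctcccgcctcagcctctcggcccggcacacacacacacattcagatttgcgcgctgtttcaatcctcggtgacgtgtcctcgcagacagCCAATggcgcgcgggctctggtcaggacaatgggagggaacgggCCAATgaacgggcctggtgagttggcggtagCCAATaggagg
Hmga2, chr10:120476470-120476719, minus strand: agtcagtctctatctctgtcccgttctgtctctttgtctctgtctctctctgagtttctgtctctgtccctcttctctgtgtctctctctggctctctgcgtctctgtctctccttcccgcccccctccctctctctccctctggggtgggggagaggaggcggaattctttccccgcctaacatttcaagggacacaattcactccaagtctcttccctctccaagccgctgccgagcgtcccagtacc
The Hmgb2 window held 4 CCAAT and 2 TTTGAA matches, that of Hmgb3 held 3 and 1, and that of Hmgb1 held 3 and 0. Hmga2 had neither motif, and its window is printed beside them. The window before the second listed start of Hmgb1, not printed, held 0 CCAAT and 0 TTTGAA matches, so the Hmgb1 count depends on the start used. Across 27025 promoters of the same length, 2.98% held 3 or more CCAAT matches, 0.92% held 4 or more, and 16.27% held at least 1 TTTGAA.

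Among the other members, Hmgn1 and Hmgn5 had 2 CCAAT matches each, a number that 10.54% of promoters reached or passed, and no TTTGAA. Hmga1, Hmga1b and Hmgn2 had no match to either. The E-box CACGTG, bound by MYC and related factors, was found once before the first start of Hmgn2 and once before the second listed start of Hmgb1, and at least once in 6.05% of promoters. The E2F motifs TTTCCCGC and TTTGGCGC were in none of the members' windows, and in 0.93% and 0.44% of promoters. Hmgn1, which did not fall, and Hmgn5, which fell, had the same CCAAT number. Matches of this kind do not show that a site is used, and the part of these motifs in the changes was not tested. Hmgn3 was not matched in the promoter table.

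**Figure D2:**
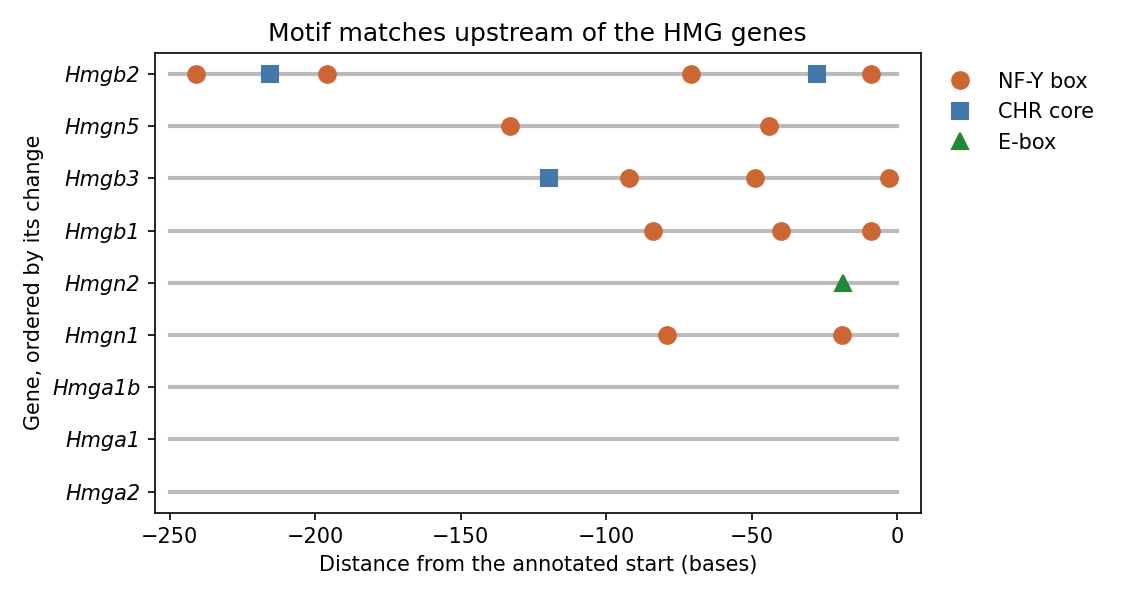
Matches in the 250 bases before the first listed start of each HMG gene, with the distance from the start in bases on the x axis and genes from the largest fall (top) to the largest rise (bottom). Orange circles mark NF-Y boxes, blue squares the CHR core and the green triangle the E-box. Before that start the 3 HMGB genes hold 3 or 4 NF-Y boxes each and the HMGA genes none of the motifs. The second listed start of Hmgb1 is not drawn.

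Hmgn1 (chromosome 16, 96120618 to 96127729, minus strand), the most abundant of the nucleosome-binding family, was at 116, 108 and 106 FPKM in DMSO and at 119, 122 and 123 FPKM with BMH-21. The groups did not overlap, but the gap between the nearest values, 116 and 119 FPKM, was smaller than the spread within DMSO. It was called higher, with a log2 fold change and SE of 0.14 ± 0.04 (adjusted p = 0.0124 by limma). The call was lost without DMSO replicate 3 (log2 fold change 0.12, limma adjusted p = 0.0593) and with column totals made equal (0.02, limma adjusted p = 0.650). With median-ratio or upper-quartile scaling the value was larger, at 0.43 and 0.46.

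Hmgn2 (chromosome 4, 133964738 to 133968650, minus strand), which binds nucleosomes in the same way, was at 39.5, 37.5 and 35.5 FPKM in DMSO. With BMH-21 it was at 27.3, 28.5 and 29.4 FPKM, lower in each library. Its log2 fold change was −0.39 ± 0.05 (SE, limma adjusted p = 4.09e-05), or −0.16 relative to the median of all tested genes. The call was lost with median-ratio scaling (−0.10, limma adjusted p = 0.110) and upper-quartile scaling (−0.08, limma adjusted p = 0.186), so that whether this gene changed rests on the scaling. Copies hold 67.11% of its 50-base stretches, and the copy Gm10282 went from 24.3 ± 0.38 to 19.7 ± 1.2 FPKM (SD, n = 3), with a log2 fold change of −0.35 for the pair in 1 row.

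Hmgn5 (chromosome X, 109004534 to 109013404, minus strand), a relative with a long acidic tail that acts against linker histones, stood out from these 2. It was at 26.4, 30.6 and 27.2 FPKM in DMSO and at 6.03, 7.26 and 6.98 FPKM with BMH-21. All BMH-21 values were under 8 FPKM and all DMSO values above 26 FPKM. The log2 fold change was −1.91 ± 0.07 (SE, limma adjusted p = 9.70e-09), and 34 tested genes fell more. Hmgn3 (chromosome 9, 83109948 to 83146685, minus strand), the remaining relative, was listed at 0, 0 and 0.0946 FPKM in DMSO and at 0.142, 0.0948 and 0 FPKM with BMH-21. These levels are too low to compare, and without the filter limma gave an adjusted p of 0.465.

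**Figure D3:**
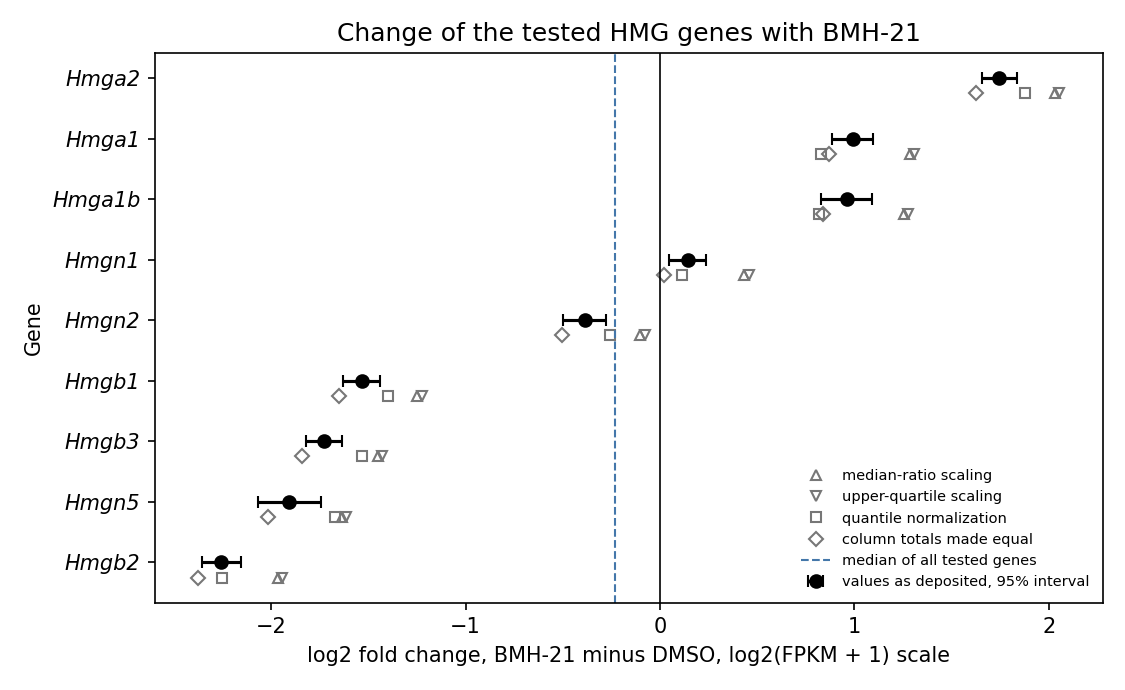
Log2 fold change of each tested HMG gene (x axis, BMH-21 minus DMSO on the log2(FPKM + 1) scale), with the limma 95% interval as a black bar, other scalings as grey symbols and the median of all tested genes as a dashed line at −0.23. The 3 HMGA rows lie right of 0 and the HMGB genes and Hmgn5 left of the dashed line under each scaling drawn, while Hmgn1 and Hmgn2 come close to 0 under at least 1.

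The direction of the HMGA, HMGB and Hmgn5 changes was the same under every scaling tried. Scaling by median ratios moved the median of all genes by 0.25 on the log2 scale, upper-quartile scaling by 0.26 and quantile normalization by 0.24. Under these and with equal column totals, Hmga2 ranged from 1.63 to 2.05, Hmgb2 from −2.38 to −1.94, Hmgb1 from −1.65 to −1.23 and Hmgb3 from −1.84 to −1.43. Calls over all genes were 25.4% higher ones as deposited and 52.5%, 54.5% and 50.1% under the first 3. Equal column totals went the other way, with 17.2%.

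Ratios between members within a library do not depend on its scaling, and 5 were compared, Hmgn3 being too low for one. Hmgb2 was at 2.86, 2.82 and 2.75 times the FPKM of Hmgb1 in the DMSO libraries and at 1.78, 1.74 and 1.64 times with BMH-21. The Hmgb2 ratio was thus lower in 3 of 3 BMH-21 libraries, a log2 difference of −0.71 ± 0.04 (SE). Hmgb3 to Hmgb1 went from 0.538 ± 0.016 to 0.452 ± 0.016 (SD, n = 3), a smaller log2 difference of −0.25 ± 0.04 (SE). The HMGB genes therefore fell by unequal amounts, Hmgb2 most.

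Hmgn5 to Hmgn1 went from 0.256 ± 0.029 to 0.0556 ± 0.0046 (SD, n = 3), and Hmgn2 to Hmgn1 from 0.341 ± 0.0064 to 0.234 ± 0.0052. The largest difference was between families. Hmga1 with Hmga1b was at 7.31, 6.54 and 6.96 times Hmgb1 in DMSO and at 42.7, 37.4 and 42.5 times with BMH-21. The size of this ratio rests on how reads shared by Hmga1 and Hmga1b were counted. In each of the 5 ratios the groups did not overlap, and the exact two-sided permutation test gave p = 0.1, the smallest that 3 against 3 libraries allow, with an adjusted p of 0.1 over the 5 ratios. That test cannot reach 0.05 in this design.

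**Figure D4:**
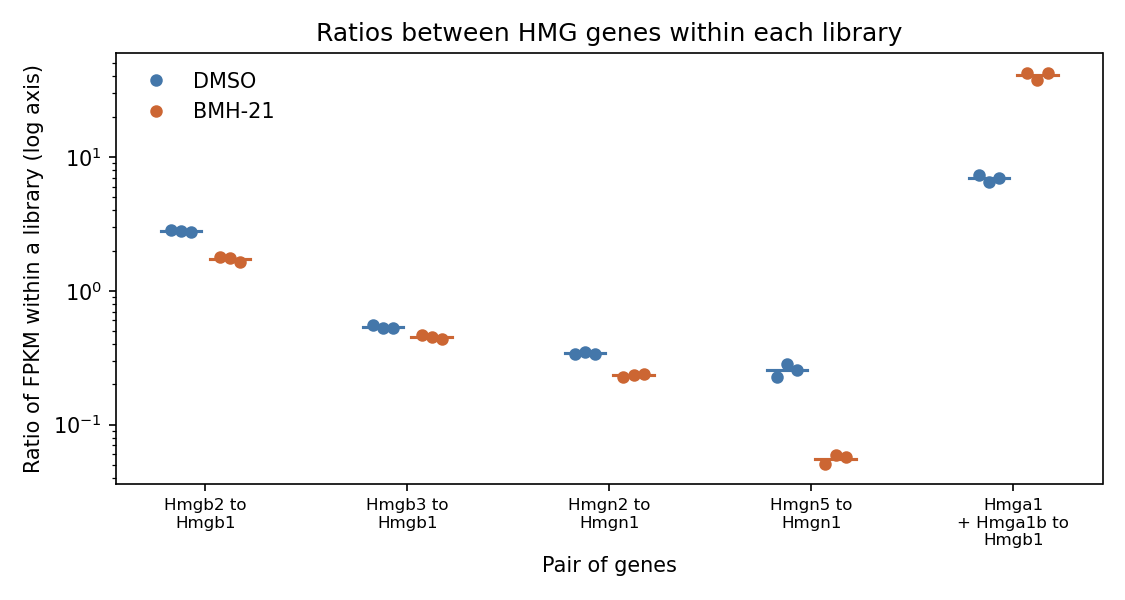
Ratio of FPKM between 2 HMG genes (x axis) within each library on a log axis, 1 point per DMSO (blue) or BMH-21 (orange) library and a line at each group mean. The first 4 ratios are lower and the ratio of the HMGA1 rows to Hmgb1 is higher with BMH-21, with no overlap between groups.

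Added up per family, the HMGA rows went from 453 ± 13 to 925 ± 46 FPKM and the HMGB rows from 271 ± 7.2 to 66.1 ± 2.3 FPKM (SD, n = 3). The HMGA sum rests on how reads shared by Hmga1 and Hmga1b were counted. The HMGN rows went from 176 ± 6.7 to 157 ± 3.5 FPKM. Within HMGB, the share of Hmgb2 went from 64.6% ± 0.30 to 54.2% ± 0.76 (SD, n = 3), and that of Hmgb1 from 23.0% to 31.5%. In both groups Hmgb2 remained the main HMGB row. Within HMGN, Hmgn5 made up 14.5% to 17.4% of the sum in DMSO and 4.31% ± 0.33 (SD, n = 3) with BMH-21, and Hmgn1 went from 62.6% to 77.5%.

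By level in DMSO the members ran from Hmga1 and Hmga1b, whose values overlapped, through Hmgb2, Hmgn1, Hmgb1, Hmgn2, Hmgb3, Hmgn5 and Hmga2 to Hmgn3. With BMH-21 the order was Hmga1 and Hmga1b, again overlapping, then Hmgn1, Hmga2, Hmgb2, Hmgn2, Hmgb1, Hmgb3, Hmgn5 and Hmgn3. Hmga2 thus moved from the lowest tested place to the fourth. Neighbours other than the HMGA1 rows did not overlap in either group.

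The tested genes nearest to Hmgb2 over the 6 libraries, by Euclidean distance of log2(FPKM + 1) centred on each gene's mean, were the mitotic cyclin Ccnb1 (distance 0.102), Prr11 (0.120) and the cytokinesis gene Racgap1 (0.127). Those nearest to Hmgb1 were Acp6 (0.0823), a lysophosphatidic acid phosphatase gene, Slfn4 (0.0962) and Gm4737 (0.0999). For Hmga1 they were the integrin gene Itgb2 (0.0798), the cystine transporter gene Slc7a11 (0.0980) and S100a11 (0.101), and for Hmgn1 they were Nudt3 (0.0366), Ralb (0.0412) and Atp5g2 (0.0536). With 2 groups, such nearness mostly says that the log2 fold changes are alike, as in Ccnb1 at −2.27 beside Hmgb2 at −2.26.

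Proliferation markers, with which Hmgb2 is known to vary, were measured beside the members. Of 16 tested, 15 fell and 1, the transcription factor gene E2f1, rose (median log2 fold change −1.78, all genes −0.23). Ccnb2, a mitotic cyclin, went from 80.8 ± 0.62 to 8.71 ± 0.13 FPKM (SD, n = 3) and Rrm2, which supplies the small subunit of the enzyme that makes deoxynucleotides, from 24.1 to 5.72 FPKM. The summed level of the list was 404.8 to 408.3 FPKM in DMSO and 135.7 to 142.8 FPKM with BMH-21. The part of cell division in the fall of the HMGB genes was not tested. E2f1, named after its values were seen, lost its call with column totals made equal.

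HMG boxes also occur in proteins outside the HMGB family. Of 16 tested genes listed under this heading, 12 fell, 0 rose and 4 did not pass (median −0.44). Among all tested genes 58.4% fell and 19.9% rose (median −0.23). The 12 include Supt16, the partner of Ssrp1, which itself has no HMG box. Ssrp1, the HMG-box subunit of the histone chaperone FACT, went from 27.4 ± 1.3 to 9.45 ± 0.58 FPKM (log2 fold change −1.44), the methyltransferase gene Kmt2d from 4.17 to 1.11 FPKM and Ubtf, an RNA polymerase I factor with several HMG boxes, from 20.2 to 11.4 FPKM. The count rests on the scaling, with 5 higher and 9 lower under median-ratio scaling, 5 and 8 under upper-quartile scaling and 4 and 8 under quantile normalization. With column totals made equal it was 0 and 14, of 17 tested. Ssrp1, Kmt2d and Ubtf were lower under each.

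Of 27 tested histone chaperones, which hand histones to DNA, 25 fell and 0 rose (median −0.68). For all tested genes the shares were 58.4% fallen and 19.9% risen (median −0.23). Under median-ratio, upper-quartile and quantile scaling 20 chaperones were lower, with 1 higher under the first 2. With column totals made equal 26 were lower and 0 higher. Anp32a, which is also in the SET complex, went from 79.6 ± 3.6 to 29.1 ± 0.40 FPKM, Asf1b, which escorts histone H3 with H4, from 47.4 to 14.1 FPKM and Nap1l1 from 54.7 to 21.1 FPKM. Of 15 tested genes listed as other architectural chromatin genes, 14 fell and 0 rose (median −0.83). Their number includes Kpna2, which encodes a nuclear import factor rather than a chromatin protein. On that list 2 were higher under median-ratio and upper-quartile scaling, 1 under quantile normalization and 0 with column totals made equal. Lmnb1, which encodes lamin B1, went from 11.9 ± 0.060 to 2.65 ± 0.11 FPKM, the cohesin gene Rad21 from 26.2 to 7.19 FPKM and the nuclear import gene Kpna2 from 13.4 to 4.29 FPKM. These 2 lists share no gene, and 13 or more genes of the second list were lower under each scaling.

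Linker histones, with which HMGN proteins compete, did not move as one. Of 3 tested, H1f2 rose from 109 ± 1.5 to 159 ± 5.7 FPKM (SD, n = 3; 0.54 on the log2 scale, limma adjusted p = 8.12e-07) and H1f0 fell from 390 ± 31 to 220 ± 18 FPKM (−0.82, limma adjusted p = 2.24e-06). H1f10 was at 2.68 ± 0.35 and 2.63 ± 0.30 FPKM and did not pass. Histone mRNAs mostly lack a poly(A) tail and have near-identical copies, so the H1f2 value covers polyadenylated RNA and is uncertain.

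HMGB2 is part of the SET complex, and of its 5 tested partners 3 fell and 1 rose (median −0.37, or 2 and 2 under median-ratio and upper-quartile scaling). Beside this list and the next, 58.4% of all tested genes fell and 19.9% rose as deposited (median −0.23). Anp32a is given above, the exonuclease gene Trex1 went from 62.5 to 34.2 FPKM, and Set from 160 to 124 FPKM, a call lost with median-ratio scaling (−0.08) and upper-quartile scaling (−0.05). The partner that rose, Nme1, a nucleoside diphosphate kinase gene, is named after its values were seen. Of 8 tested receptors and cofactors of extracellular HMGB1, 3 rose and 4 fell (median −0.15, or 4 and 2 under median-ratio and upper-quartile scaling). The receptor gene Tlr2 went from 24.9 ± 0.95 to 11.6 ± 0.091 FPKM and the co-receptor gene Cd14 from 359 ± 1.2 to 537 ± 6.6 FPKM (SD, n = 3), and Sdc1, a surface proteoglycan, from 2.11 to 5.47 FPKM. Ager, which encodes the receptor RAGE, was under the filter, at 0, 0.0432 and 0.0206 FPKM in DMSO and at 0 in every BMH-21 library.

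Among 6 tested regulators described for HMGA genes, 3 rose and 3 fell (median −0.06, or 1 and 3 with column totals made equal). As deposited, 19.9% of all tested genes rose and 58.4% fell (median −0.23). Igf2bp2, an RNA-binding protein gene known as a target of HMGA2, rose from 5.23 ± 0.18 to 12.7 ± 0.69 FPKM (SD, n = 3), which is 1.14 on the log2 scale (limma adjusted p = 3.15e-08). Mycn, a relative of MYC, fell from 147 ± 8.6 to 70.3 ± 3.5 FPKM (−1.05, limma adjusted p = 5.74e-08), and the factor gene Sp1 from 2.83 to 1.70 FPKM. Myc itself was under the filter.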

How the data were processed

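RNA from polysome fractions of RAW264.7 cells was sequenced in 6 libraries, grouped by title into 3 DMSO and 3 BMH-21. The authors deposited 1 table of normalised values, read here as FPKM from the values because no label names the unit. Reads were handled with SAMtools, HISAT2 and Trimmomatic 0.38 and the mm10 genome, per the submitters' processing notes. For the counting tool and gene models, the sources used here name nothing. Oligo-dT enrichment was used per the labels' protocols, with no statement of strand.

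Rows reaching 1 FPKM in 3 or more libraries (50.7%) were tested on log2(FPKM + 1) with limma 3.58.1 (R 4.3.3, intensity trend), with Benjamini-Hochberg adjustment over all 9748 genes. Fold changes on this scale understate low genes. Only 75.5% to 77.6% of the 1696 to 2051 lowly expressed single-transcript genes examined in a library (up to 20 reads) gave whole reads to within 0.01, too few to recover counts, so depth is an estimate and no count model was fitted. The labels do not say that replicates were separate cultures, so p-values cover only how these libraries vary, and that variation may be technical. Across genes, libraries of a group correlated at 0.997 or more.

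The members and lists were chosen with earlier results of these data known. Named were all members, up to 3 genes per list in ascending order of p and the 3 nearest profiles. Copies, let-7 and promoter motifs were chosen after the values were seen. Positions, transcripts and shared 50-base stretches are from GENCODE M21 on GRCm38, the assembly of mm10, and promoters, matched for 9 of 10 members, and let-7 from RefSeq. The test was checked on simulated data in which few genes changed, equally in both directions. In the deposited data most genes passed, more of them lower, so that check does not cover the choice of scaling. Alternatives covered pseudocount, filter, scaling, trend, replicate block and each library left out, and rows of near-identical copies summed.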

Additional observations from a re-analysis of the deposited data

How the results depend on the processing

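Of 161 alternative values of the 9 tested members, 157 kept their direction and their side of the threshold, and none turned direction. Many of these could not turn. Dropping the filter or the trend and adding the replicate block leave each log2 fold change as it was and alter only its adjusted p. Each sum of rows alters the log2 fold change of the summed member alone. The other 4 were Hmgn2 with median-ratio scaling (−0.10) and upper-quartile scaling (−0.079), and Hmgn1 with column totals made equal (0.021) and without DMSO replicate 3 (0.12). Leaving out each library in turn, Hmgn1 lay between 0.12 and 0.18, Hmgn2 between −0.43 and −0.35, Hmga2 between 1.73 and 1.77 and Hmgb2 between −2.28 and −2.22. The count of members that passed was 8 or 9 under each alternative, being 8 of 8 rows where Hmga1 and Hmga1b were summed. The replicate block gave 9 and changed no member's call, with Hmgn1 at 0.14 (limma adjusted p = 0.0287) and Hmgn2 at −0.39 (limma adjusted p = 0.000212). Same-numbered libraries did not deviate together (correlations −0.11, −0.09 and −0.06), so the numbers were not taken as pairs. In the ratios the block left the log2 difference of Hmgb2 to Hmgb1 at −0.71 with a sign-flip p of 0.25, the smallest 3 pairs allow. Over all genes 7628 were called, and 3744 higher with 3386 lower under median-ratio scaling, 3895 with 3246 under upper-quartile scaling and 3517 with 3498 under quantile normalization, against 1938 and 5690 as deposited. With column totals made equal, 1390 were higher and 6670 lower. The causes of these shifts were not tested. The sums with copies and pseudogene rows were added after seeing the data. The ratio of Hmgn3 to Hmgn1 was not run because Hmgn3 is listed at 0 in 3 libraries.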

Other observations

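The let-7 seed match that is repeated in Hmga2 was counted in all coding genes, as a description added after the values were seen. Of the tested genes, 13 held 3 or more matches in their longest 3′ untranslated region, and of these 6 rose and 2 fell (median log2 fold change 0.09). Of all 9180 tested genes with such a region, 19.5% rose and 59.5% fell (median −0.24). Genes with no match had a median of −0.25, with 1 match −0.19 and with 2 matches −0.15. Beside Hmga2, the tested genes with 4 or more were Ptafr, the receptor gene for platelet-activating factor, from 12.6 ± 0.39 to 27.3 ± 0.55 FPKM, Mcf2l, an exchange factor gene, from 1.24 ± 0.046 to 3.44 ± 0.052 FPKM (SD, n = 3), and D10Wsu102e, which did not pass (limma adjusted p = 0.146). Mcf2l held 7 matches, the most of these 13 genes. Hmga2 is itself among the 13, and longer regions hold more matches of any kind. These counts were made only with the values as deposited, and the part of let-7 in the changes was not tested.

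The CCAAT box was counted in the same way. The 408 tested genes with 3 or more matches had a median log2 fold change of −0.29, those with 2 matches −0.26, those with 1 −0.23 and those with none −0.23. Of the 408, 17.6% rose and 64.0% fell, against 19.7% and 59.2% of all 7703 tested genes with a promoter in the table. Other scalings were not used for this count.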
